A study of Mus musculus with 47 samples.

Results

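The 10 genes described here are used as marks of eosinophils, mast cells and basophils: Epx, Prg2, Prg3, Il5ra, Cpa3, Mcpt8, Ms4a2, Fcer1a, Prss34 and Gata2. They were taken by symbol from a table of read counts for 20456 mouse genes in 47 libraries, and all 10 were in it. The libraries came from liver, lung and brain of 17 embryos at E18.5, shortly before birth. Homozygous Daxx S226A embryos and homozygous Daxx Y130A embryos were each set against wild-type littermates from the same heterozygous intercrosses, with 4 libraries per tissue and genotype, except for 3 wild-type lungs in the Y130A litters. The alleles were made by CRISPR/Cas9 knock-in in C57BL/6N zygotes, so the embryos have a mixed C57BL/6N and C57BL/6J background after outcrossing of the line. Both alleles also carry silent base changes, and every cell of a mutant embryo carries the substitution, so blood and liver cells were not altered separately. Daxx is a chaperone of the histone variant H3.3. The S226A substitution disrupts its binding of H3.3, and Y130A its binding of Atrx, its partner protein. Gene counts cannot show a base substitution, so genotypes rest on the labels.

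Libraries of the S226A litters held 15722147 to 26190403 counted reads (median 20341531, 24 libraries), and those of the Y130A litters 36351738 to 54885020 (median 44523912, 23 libraries). The 2 litter sets thus differed in depth as well as in allele, and these cannot be told apart when levels are compared between sets. Summed hepatocyte markers reached at least 3200000 normalized counts in each liver and at most 31020 in any lung or brain, while lung epithelial and neuronal markers were high in lung and in brain, respectively. One wild-type liver of the S226A litters (litter 2881) and one Y130A liver (litter 2848) also held transcripts of squamous epithelium, with summed levels of 19970 and 13170 against at most 169 in the other 14 livers. The liver fits were repeated without these 2 livers.

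Eosinophils, mast cells and basophils are granule-bearing leukocytes of allergy and of defence against parasites, and they arise from haematopoietic progenitors, which reside in the liver before birth. Eosinophil granules hold a peroxidase (Epx) and major basic proteins (Prg2 and Prg3), and the cells depend on interleukin 5, which binds the receptor subunit Il5ra. Mast cells and basophils store proteases, of which carboxypeptidase A3 (Cpa3) is found in both, while Mcpt8 and Prss34 are known from mouse basophils. Both cell types carry the high-affinity IgE receptor, with the ligand-binding chain Fcer1a and the signal-amplifying chain Ms4a2. The transcription factor Gata2 acts in mast cell and basophil development, and also in blood stem cells and endothelium. Several of these genes therefore mark more than 1 cell type in a whole tissue.

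Because the list holds a GATA factor beside genes known from the lineages it serves, the promoters were searched for GATA cores on both strands, namely the letters AGATAA or AGATAG and the forms TGATAA or TGATAG. RefSeq windows of 250 bases before and 50 after the start site (GRCm38.p6) were found for 9 of the 10 members, and not for Prg2. A match was present in 6 of these 9 (Prg3, Il5ra, Cpa3, Ms4a2, Fcer1a and Prss34) against 29.8% of the 32817 windows searched, and in none of Epx, Mcpt8 and the pair of Gata2 windows. That share was counted per window and not per gene, over windows that did not span every chromosome. Ms4a2 had 3 matches, at 224, 37 and 11 bases before its start, and that of Prss34 lay 31 bases before. The windows of 4 of them, genes whose liver counts follow, are shown as the 250 bases before the start, 5′ to 3′ on the gene's own strand, with GATA matches in capitals. Prg3 covers chr2:84987965-84988214 (plus strand), Cpa3 chr3:20242182-20242431 (minus), Ms4a2 chr19:11623720-11623969 (minus) and Prss34 chr17:25298144-25298393 (plus).
Prg3: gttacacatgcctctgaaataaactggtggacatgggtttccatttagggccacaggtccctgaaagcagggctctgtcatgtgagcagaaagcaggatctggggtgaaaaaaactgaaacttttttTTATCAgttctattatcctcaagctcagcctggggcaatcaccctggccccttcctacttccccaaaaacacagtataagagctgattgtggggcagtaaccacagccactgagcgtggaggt
Cpa3: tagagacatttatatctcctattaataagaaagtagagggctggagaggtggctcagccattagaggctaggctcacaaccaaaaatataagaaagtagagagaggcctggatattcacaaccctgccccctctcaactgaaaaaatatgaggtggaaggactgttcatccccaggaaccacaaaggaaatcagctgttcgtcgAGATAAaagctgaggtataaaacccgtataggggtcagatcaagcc
Ms4a2: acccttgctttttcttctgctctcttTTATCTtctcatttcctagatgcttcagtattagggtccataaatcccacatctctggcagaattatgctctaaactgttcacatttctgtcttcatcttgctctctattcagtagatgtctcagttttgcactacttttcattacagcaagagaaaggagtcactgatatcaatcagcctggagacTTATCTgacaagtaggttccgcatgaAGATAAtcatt
Prss34: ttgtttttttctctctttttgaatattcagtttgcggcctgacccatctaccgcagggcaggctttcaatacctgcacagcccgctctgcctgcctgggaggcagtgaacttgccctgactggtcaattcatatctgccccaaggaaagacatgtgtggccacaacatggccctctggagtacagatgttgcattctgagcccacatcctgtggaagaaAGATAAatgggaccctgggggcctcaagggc
The letters TATAAA were found in the windows of Epx, Cpa3 and Fcer1a (13.6% of all windows), and TTGCNNAA, a C/EBP core, in that of Fcer1a (10.8%). No match says only that these letters are not in the window, and a match is a description of the sequence and not a site of binding.

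In the liver, none of the 10 genes was called changed in S226A or in Y130A embryos. Counts were low throughout: 6 of 10 members had reads in all 16 livers, 4 had at least 10 reads in all of them, and Fcer1a had none in any. The filter on low counts, applied over all 47 libraries, left 9 members (all but Fcer1a) among 16892 genes tested. A gene was called by the stringent rule when its Benjamini-Hochberg adjusted p in edgeR's quasi-likelihood test was below 0.01, its log2 fold change was beyond 1 in either direction and the standard error (SE) of that value was below 1. The second rule asked only for an adjusted p below 0.05. In S226A liver the stringent rule called 2.1% of all genes and the second 11.7%, and 0 of 9 members by either rule. At an unadjusted p below 0.05 it was also 0 of 9 in this fit, which did not pair litter mates, against 24.7% of all genes. In Y130A liver the shares were 0.077% and 0.272%, again with 0 of 9 members by either rule and 1 (Cpa3) at an unadjusted p below 0.05, against 9.22% of all genes. DESeq2 called 0 members in both comparisons. In bulk tissue, fewer cells of a type and less RNA per cell cannot be told apart. For 7 of the 9 members the SE of the log2 fold change was 0.57 or more in both alleles, so a 2-fold difference in these was not detectable at this depth and number of embryos.

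Per library, values are given in litter order, for litters 2875, 2881, 2970 and 2972 of the S226A set and litters 2848, 2851, 2974 and 3069 of the Y130A set. Normalized counts are counts scaled to library size by TMM factors, means are ± SD over 4 libraries unless another n is given, and log2 fold changes are mutant over wild type ± SE.

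**Figure D1:**
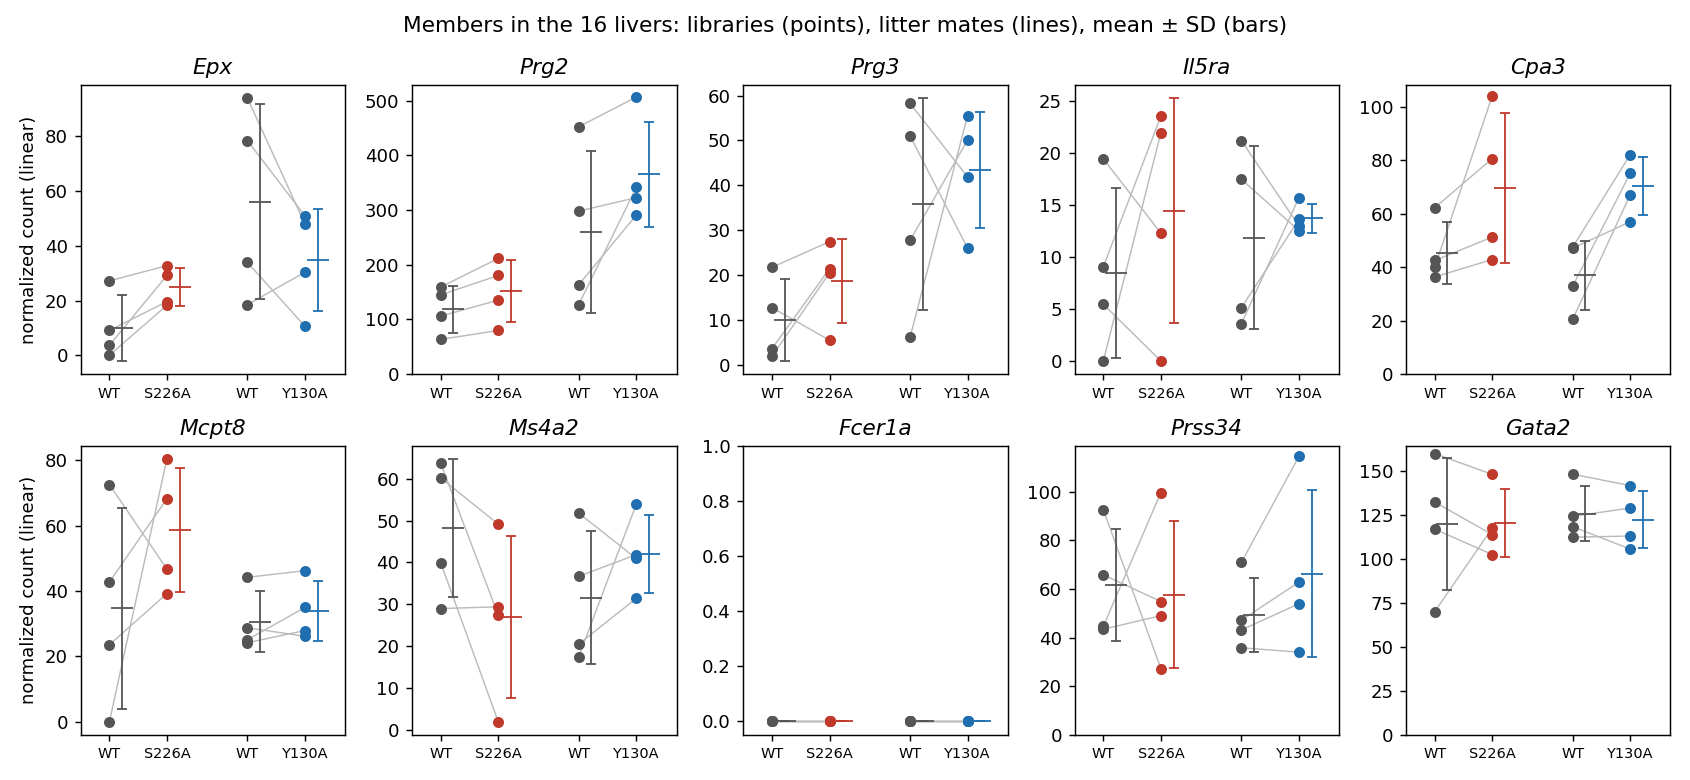
Normalized counts (linear axis) of the 10 genes in the 16 livers, by genotype and litter set; points are libraries, grey lines join litter mates, and bars are the mean ± SD of 4 libraries. Prg2 and Cpa3 lie higher in the mutant in all 8 litters, Fcer1a lies at 0 in all livers, and the groups of the remaining genes overlap.

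Epx, the peroxidase of eosinophil granules (chr11:87864000-87875536, minus strand), was read 10, 24, 10 and 15 times in S226A livers and 0, 14, 5 and 2 times in their wild-type litter mates. In normalized counts this was 24.96 ± 7.12 against 9.97 ± 12.1, a log2 fold change of 1.31 ± 0.74 (edgeR adjusted p = 0.277). The S226A liver was higher in 4 of 4 litters, but 1 wild-type liver lay within the S226A range, and an exact permutation test of the 2 groups gave p = 0.0857 where the smallest possible value is 0.0286. That wild-type liver, of litter 2881, was the one with squamous transcripts. Without both livers that held them the log2 fold change was 2.49 (edgeR adjusted p = 0.0504), just short of the second rule. In Y130A livers Epx had 55, 51, 29 and 11 reads against 105, 100, 18 and 33, and here the mutant was higher in 1 of 4 litters. The means were 35.0 ± 18.6 and 56.2 ± 35.8 normalized counts, with a log2 fold change of -0.69 ± 0.65 (edgeR adjusted p = 0.876). The difference between the effects of the 2 alleles on Epx was 2.00 ± 0.98 on the log2 scale (unadjusted p = 0.0489, edgeR adjusted p = 0.269), and 3.37 without the 2 livers with squamous transcripts (edgeR adjusted p = 0.0592). Mpo, a related peroxidase gene on the same chromosome that was called higher in S226A liver, had 29630 ± 4025 normalized counts against 10310 ± 602. Reads shared between such near relatives were not tested.

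Prg2 encodes the major basic protein (chr2:84980461-84983632, plus strand) and was the member with the most reads in liver. S226A livers had 74, 155, 92 and 41 reads and their litter mates 50, 82, 80 and 35. Y130A livers had 581, 323, 326 and 302 against 505, 380, 124 and 159. Scaled to library size, the mutant was higher in 4 of 4 litters of each set, although the groups overlapped in both. The means were 152 ± 57.3 against 118 ± 42.9 normalized counts in the S226A litters (log2 fold change 0.36 ± 0.59, edgeR adjusted p = 0.787). In the Y130A litters they were 365 ± 96.5 against 260 ± 148 (0.49 ± 0.57, edgeR adjusted p = 0.919). Wild-type livers of the Y130A litters alone thus ran from 124 to 505 reads.

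Prg3, the neighbouring gene for a homologue of the major basic protein (chr2:84988215-84993886, plus strand), was near zero in several livers. It had 3, 15, 14 and 11 reads in S226A livers against 6, 1, 12 and 2, and 48, 26, 53 and 52 in Y130A livers against 65, 65, 6 and 27. The log2 fold changes were 0.89 ± 0.90 (edgeR adjusted p = 0.609) and 0.27 ± 0.79 (edgeR adjusted p = 1). The Y130A liver was higher in 2 of 4 litters and the S226A liver in 3 of 4. Prg2 and Prg3 are related in sequence and lie side by side, and how reads that fit both were assigned is not given in the sources used here.

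Il5ra, the subunit that binds interleukin 5 (chr6:106710357-106749037, minus strand), had 12, 9, 12 and 0 reads in S226A livers and 0, 10, 5 and 3 in their litter mates. In the Y130A litters it had 18, 13, 13 and 13 against 4, 27, 5 and 17. A count of 0 allows up to 3 reads, which corresponds to 2.35 to 6.37 normalized counts over the 16 livers, so the lowest of these livers could not be told from each other. The log2 fold changes were 0.75 ± 1.10 and 0.20 ± 0.99 (edgeR adjusted p = 0.749 and 1), with the mutant higher in 2 of 4 litters in either set. Wild-type levels spread more among Y130A litters (11.8 ± 8.80 normalized counts) than did those of the Y130A embryos (13.7 ± 1.40). That difference in spread was not tested.

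Cpa3, the carboxypeptidase of mast cell and basophil granules (chr3:20215620-20242181, minus strand), had the lowest unadjusted p of the 9 tested members in liver, in Y130A. The Y130A livers had 94, 57, 64 and 78 reads and their litter mates 53, 60, 20 and 32. Scaled to library size, the 2 groups did not overlap: 70.3 ± 10.8 normalized counts against 37.0 ± 12.9, a log2 fold change of 0.92 ± 0.38 (unadjusted p = 0.0203, edgeR adjusted p = 0.384). An exact two-sided permutation test over the 8 livers gave p = 0.0286, the smallest value it can give, unadjusted for the number of genes. S226A livers had 28, 59, 53 and 22 reads against 20, 32, 22 and 20. Here the groups overlapped, with means of 69.6 ± 28.0 and 45.2 ± 11.6 (log2 fold change 0.63 ± 0.40, edgeR adjusted p = 0.350). The mutant liver was higher in 4 of 4 litters of each set.

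Of the basophil proteases, Mcpt8 (chr14:56082166-56085273, minus strand) had 44, 50, 20 and 24 reads in S226A livers against 0, 22, 13 and 40. In the Y130A litters it had 32, 35, 25 and 48 against 27, 32, 28 and 43, close to even in each litter. The log2 fold changes were 0.75 ± 0.79 (edgeR adjusted p = 0.623) and 0.15 ± 0.77 (edgeR adjusted p = 1). Prss34 (chr17:25298394-25300165, plus strand) had 30, 73, 25 and 14 reads in S226A livers against 31, 23, 24 and 51, with no common direction among the litters. In the Y130A litters it had 39, 54, 60 and 119 against 40, 55, 46 and 69. Its log2 fold changes were -0.09 ± 0.65 (edgeR adjusted p = 0.986) and 0.43 ± 0.64 (edgeR adjusted p = 0.952). The wild-type liver of litter 2875 had no reads of Mcpt8, Epx or Il5ra but 31 of Prss34 and 30 of Ms4a2, so low counts did not fall on all members of a library alike.

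For the IgE receptor, Ms4a2 (chr19:11615523-11623719, minus strand) was read 15, 36, 15 and 1 times in S226A livers and 30, 31, 16 and 22 times in their litter mates. The low value, 1 read, was in the liver of litter 2972, which also had none of Il5ra. In the Y130A litters Ms4a2 had 48, 41, 30 and 56 reads against 41, 66, 20 and 17. The log2 fold changes were -0.82 ± 0.80 (edgeR adjusted p = 0.590) and 0.40 ± 0.77 (edgeR adjusted p = 0.976), and groups overlapped in both sets. Fcer1a (chr1:173221284-173227214, minus strand), the chain that binds IgE, had 0 reads in all 16 livers although Ms4a2 was present in each of them, so no fold was given.

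Gata2, the transcription factor (chr6:88193891-88207032, plus strand), had the smallest log2 fold changes of the tested members in both liver comparisons. S226A livers had 56, 86, 58 and 76 reads against 55, 36, 73 and 88, or 120 ± 19.4 normalized counts against 119.7 ± 37.6. Y130A livers had 121, 113, 123 and 147 reads against 132, 143, 121 and 144, or 122 ± 16.2 against 126 ± 15.7. Neither set gave a difference beyond its error, with log2 fold changes of 0.00 ± 0.24 and -0.04 ± 0.22 (edgeR adjusted p = 1 in both). The sign of these values turned under several settings.

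**Figure D2:**
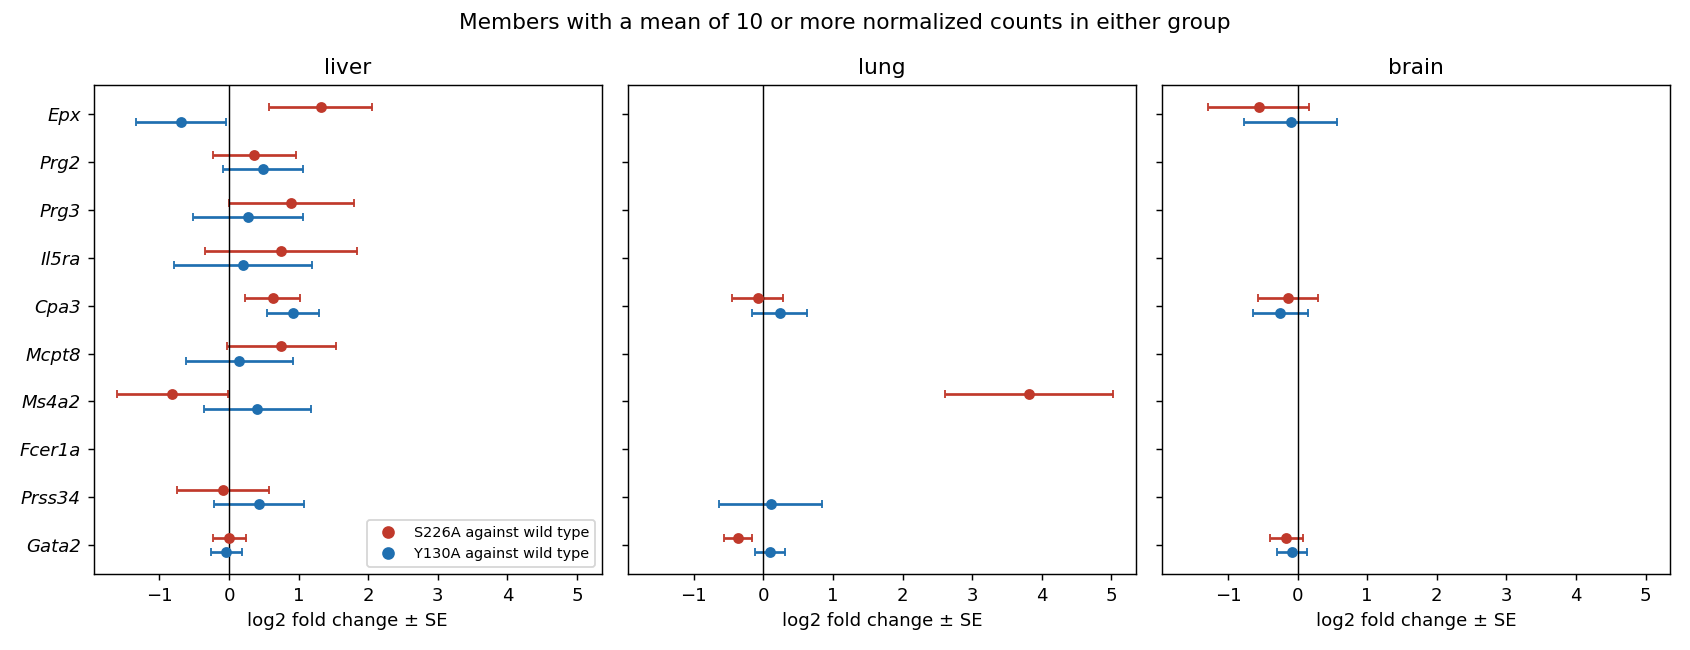
Log2 fold change of mutant over wild type (points) ± SE (bars) in liver, lung and brain, S226A in red and Y130A in blue, for members with a mean of at least 10 normalized counts in either group. In liver only Cpa3 has bars wholly above 0 in both alleles, and the bars of Prg2, Prg3, Il5ra, Mcpt8, Prss34 and Gata2 cross 0 in both. Ms4a2 in S226A lung stands far to the right with a bar over 2 units wide.

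Without the 2 livers with squamous transcripts, the log2 fold changes in S226A liver also moved for Il5ra, to 1.51, and for Prg3, to 0.55, and in Y130A liver for Prg2, to 0.29, and for Prss34, to 0.65. Leaving out any 1 liver left no member called but moved most of these small-count values by more than 1.5 times.

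Read across the list, 7 of the 9 tested members had a positive log2 fold change in S226A liver and 7 in Y130A liver, with medians of 0.63 and 0.27 against -0.01 and 0.00 over all genes. The S226A count includes Gata2 at 0.003 ± 0.24. In Y130A liver the signs of Prg3, Il5ra and Mcpt8 turned when 1 library was left out. The share of positive values over all genes was not counted, so these counts do not show a rise of the list. Signs by litter were set beside the same count over all genes. The mutant was higher in all 4 litters for 3 of 9 members in S226A liver (Epx, Prg2 and Cpa3), against 12.4% of the genes tested, and for 2 of 9 in Y130A liver (Prg2 and Cpa3), against 6.6%. Both Prg2 and Cpa3 were higher in the mutant in all 8 litters, as were 1.26% of all genes (212 genes). These are counts of direction and not tests, and the 2 genes are not independent of each other. Over the 16 livers, after taking off each group's mean, log2 levels of Prg2 and Cpa3 had a correlation of 0.82, so livers high in one were high in the other. The same measure was 0.65 for Cpa3 with Ms4a2 and 0.60 for Prg2 with Ms4a2, and it lay between 0.54 and 0.56 for Il5ra with Mcpt8, Il5ra with Ms4a2, Epx with Mcpt8 and Epx with Prg2. The eosinophil granule genes did not all go together, with 0.44 for Prg2 with Prg3 and 0.01 for Epx with Prg3. The lowest value of the pairs was -0.60, for Prg2 with Gata2. The points share their libraries and, at these counts, much sampling noise. The wild-type liver of litter 2875 had 0 reads of Epx, Il5ra and Mcpt8, and this zero weighs on the pairs that hold these genes.

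In no tissue was a member called for a difference between the S226A and the Y130A effect (0 of 9 in each), where 1.47% of all genes were called in liver, 0.077% in lung and 0.0474% in brain by an adjusted p below 0.01 and a difference beyond 1. At an unadjusted p below 0.05 there was 1 member in liver (Epx, against 18.4% of all genes), and there were 2 in lung (9.8%) and 0 in brain (2.29%). In lung and brain several of the 9 were at or near zero and could hardly have been called. Prg3 had 0 reads in every brain, and Mcpt8 and Prss34 had at most 1 and 2 reads in any brain. The 0 of 9 there is therefore not a result about all 9 members.

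Among 14147 genes with a mean of at least 10 reads in liver, those whose levels over the 16 livers were most like Cpa3, by the same correlation, were Pcolce (0.93), Snx16 (0.88) and Tspan5 (0.87). For Epx they were Khdrbs3 (0.94), Cdk19 (0.89) and Aldh3b2 (0.87). Those of Mcpt8 were Dnm1 (0.93), 1110002E22Rik (0.92) and Gm5150 (0.92), and those of Gata2 were Tgtp1 (0.86), Stard8 (0.85) and Coro2b (0.85). The Mcpt8 values rest largely on 1 library, the wild-type liver of litter 2875, which had 0 reads of Mcpt8. They are the highest of many values over few libraries and are given as a description, and no other member was among the 3 most like genes of any of these 4.

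Other genes of the same 3 cell types were described by lists drawn up beside the members. Of 9 tested eosinophil genes, 1 was called higher in S226A liver, Cd300lf, an inhibitory receptor of many myeloid cells, at 1567 ± 137 normalized counts against 685 ± 53.0 (log2 fold change 1.19, edgeR adjusted p = 0.000167). Siglecf, a sialic acid receptor of eosinophils, had 175 ± 33.4 against 68.8 ± 36.8 without overlap (log2 fold change 1.35, edgeR adjusted p = 0.0777), short of both rules. Adgre4, an adhesion receptor of the same list, had the opposite sign, at 87.7 ± 56.2 against 213.5 ± 19.5 (-1.27, edgeR adjusted p = 0.0531), and Ccr3, the eotaxin receptor, had 10.8 ± 8.44 against 20.9 ± 26.4 (-0.95, edgeR adjusted p = 0.637). Of 10 tested mast cell genes, Hpgds, a prostaglandin D synthase also made by macrophages, was lower by the stringent rule (log2 fold change -2.18, edgeR adjusted p = 1.99e-06). Hdc, which makes histamine, was higher by the second rule (0.88, edgeR adjusted p = 0.00143). None of the 4 tested basophil genes was called. Over all livers Ccr3 had 0 to 52 reads in the livers, the basophil receptor Cd200r3 had 5 to 52 and the mast cell protease Mcpt4 0 to 6.

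Receptors and signalling parts that these cells share with other leukocytes were higher in S226A liver in part, with counts to be read against the 11.7% of all genes that passed the second rule. Of 8 tested genes of the interleukin 3, interleukin 5 and GM-CSF pathway (a cytokine, receptor chains, Jak2 and the Stat5 genes), 3 were higher by the second rule, all receptor chains: Csf2ra, the GM-CSF receptor chain (log2 fold change 1.09, edgeR adjusted p = 4.75e-06), Il3ra (0.79, edgeR adjusted p = 0.0321) and the shared chain Csf2rb (0.56, edgeR adjusted p = 0.0142). Csf2ra also passed the stringent rule. Of 12 genes of IgE receptor signalling, Fcer1g, the signalling chain shared by many Fc receptors, and the phospholipase Plcg2 were higher (0.57 and 0.76, edgeR adjusted p = 0.00546 and 1.23e-05), and the kinase Fyn was lower (-0.37, edgeR adjusted p = 0.000542). Of 15 factors of the granulocyte and mast cell lineages, Cebpe, a factor of late granulocytes, was higher by the stringent rule (1.62, edgeR adjusted p = 0.000129). Spi1 (0.88) was higher and Tal1 (-0.34) lower by the second (edgeR adjusted p = 0.00021 and 0.0183).

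These values stood beside a large rise of neutrophil genes. In S226A liver 5 of 5 tested genes of granulocyte precursors (Mpo, Elane, Prtn3, Ctsg and Ms4a3) were higher by the stringent rule, with log2 fold changes of 1.37 to 1.70, as were 7 of 8 neutrophil genes (S100a8, S100a9, Ltf, Ngp, Camp, Retnlg and Mmp8), with Cxcr2 higher by the second rule. Summed neutrophil markers ran from 225200 to 246900 normalized counts in S226A livers and from 78510 to 97210 in their litter mates, with all 8 genes read in both groups. Macrophage markers ran from 5272 to 8584 against 19300 to 24060, with 6 of 7 called lower by the stringent rule, among them Vsig4, which had no reads in S226A livers. The part of these cells in the values of Cd300lf, Csf2ra, Cebpe or Hpgds was not tested. In Y130A liver no gene of the lists above was called. Its neutrophil sums were 115100 to 133600 against 99400 to 124200, with the Y130A liver above its litter mate in each litter. That difference was not tested. Chosen after its values were seen, the eosinophil ribonuclease Ear6 had 25 to 54 reads in Y130A livers and 0 to 14 in their litter mates (log2 fold change 2.54 ± 0.95, edgeR adjusted p = 0.337). Ear genes are near-identical copies, so its reads are uncertain.

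**Figure D3:**
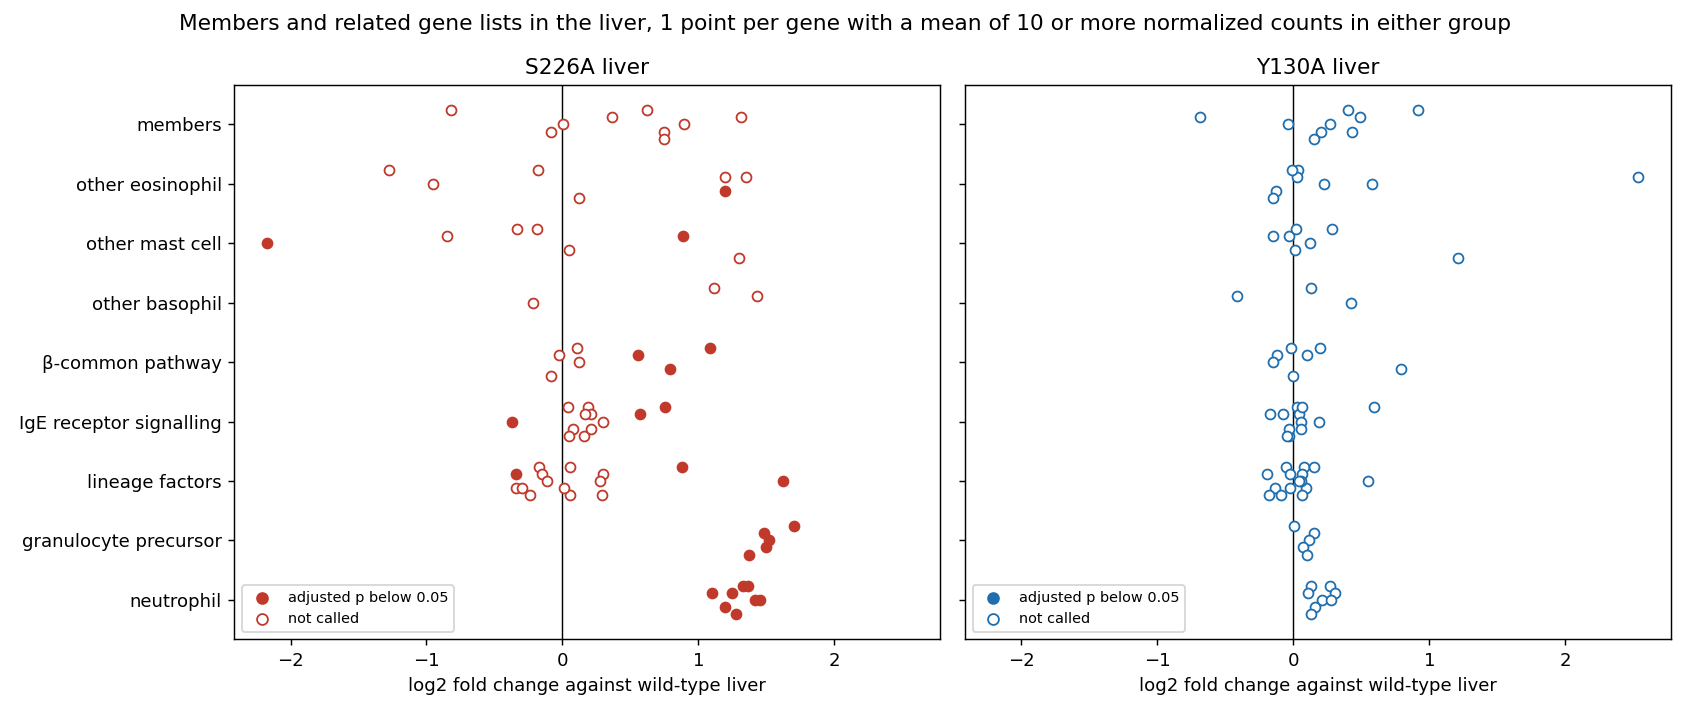
Log2 fold change against wild-type liver for the members and related gene lists, S226A left and Y130A right; each point is 1 gene with a mean of at least 10 normalized counts in either group, filled where the adjusted p is below 0.05. Granulocyte precursor and neutrophil genes lie above 1 in S226A liver, all filled, while the members scatter from -0.82 to 1.31 with none filled, and in Y130A liver no point is filled.

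In the lung, 0 of 9 members were called in S226A embryos, where 0.302% of all genes passed the stringent rule and 1.88% the second, and 2 members (Ms4a2 and Prg2) had an unadjusted p below 0.05, as had 16.2% of all genes. In Y130A lung 0 of 9 were called, against 0% and 0.0178% of all genes, and 0 had an unadjusted p below 0.05 (2.92% of all genes). DESeq2 called 0 in both. Only Cpa3 and Gata2 had reads in all 15 lungs, so members at or near zero there could hardly have been called. Ms4a2 had 4, 16, 15 and 1 reads in S226A lungs and 2, 0, 0 and 0 in wild-type lungs of the same litters, or 11.8 ± 9.98 against 0.74 ± 1.48 normalized counts. The S226A lung was higher in 4 of 4 litters, though litter 2972 had only 1 read against 0, and the share of all genes was not counted here. In all there were 36 reads against 2, a ratio of 16.1 scaled to depth whose 95% interval for counting error alone was 4.15 to 138. With each wild-type lung set to 3 reads it was at least 2.70-fold higher. The edgeR fit gave an unadjusted p of 0.00298 and an adjusted p of 0.0885, and the exact permutation test over 8 lungs p = 0.0571. In Y130A lungs Ms4a2 had 11, 7, 0 and 7 reads, and wild-type lungs of litters 2848, 2851 and 2974 had 10, 0 and 24. Leaving out 1 lung moved the log2 fold change in S226A lung between 3.34 and 6.70, the highest without the single wild-type lung that had reads (litter 2875), and left it uncalled. In normalized counts the wild-type lungs of the 2 litter sets spanned 0 to 14.3 and the S226A lungs 1.22 to 22.04. The difference between the effects of the alleles was 4.66 ± 1.53 on the log2 scale (edgeR adjusted p = 0.233).

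Fcer1a, absent from every liver and brain, was read in a few lungs: 1, 0, 7 and 2 times in S226A lungs and 0 times in all 4 wild-type lungs of their litters, and 0 times in all 4 Y130A lungs against 1, 0 and 4. Exact permutation tests gave p = 0.143 in each set. The p of Prg2 in S226A lung rests on a single wild-type lung, with 0, 21, 0 and 0 reads against 3, 0, 0 and 0 in the mutants (edgeR adjusted p = 0.258). In Y130A lungs it had 1, 5, 17 and 5 reads against 3, 0 and 4.

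Cpa3 and Gata2 were the members with substantial counts in lung. Cpa3 had 102 ± 22.03 normalized counts in S226A lungs against 108 ± 55.9 (log2 fold change -0.08 ± 0.37, edgeR adjusted p = 0.962). In Y130A lungs it had 104 ± 32.0 against 87.9 ± 15.4 (n = 3; 0.24 ± 0.39, edgeR adjusted p = 1). Neither difference passed its error. Gata2 had 728 ± 243 in S226A lungs against 939.5 ± 120 (-0.37 ± 0.20, edgeR adjusted p = 0.375; -0.17 without the S226A lung of litter 2881), with 672, 408, 927 and 904 in litter order against 938.5, 851, 1109 and 859, so that the groups overlapped. In Y130A lungs it had 614 ± 93.2 against 576 ± 114 (n = 3; 0.09 ± 0.22, edgeR adjusted p = 1). Epx had 0 to 6 reads in the lungs, and Prg3 and Mcpt8 had at most 6 and 7. Prss34 had 0 to 7 reads in lungs of the S226A litters and 2 to 30 in those of the Y130A litters, and Il5ra had 0 to 31.

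Of the related lists, Ear2, an eosinophil-associated ribonuclease also known from macrophages, was lower in S226A lung by the stringent rule (log2 fold change -1.50, edgeR adjusted p = 0.00352) and Cebpe was higher by the same rule (3.44, edgeR adjusted p = 0.00367). Cebpe was near zero in wild-type lungs, at 1.44 ± 1.96 normalized counts against 16.8 ± 1.81, so it is given as at least 3.86-fold higher. The shared receptor chains Csf2rb (-0.99, edgeR adjusted p = 0.000196) and Csf2rb2 (-1.64, edgeR adjusted p = 0.0154) were lower by the second rule, as were the IgE receptor signalling genes Lcp2 (-0.80, edgeR adjusted p = 0.00262) and Plcg2 (-0.67, edgeR adjusted p = 0.00165). In S226A liver all 4 had positive values, and whether the effect differed between liver and lung was not tested. Summed neutrophil markers were 4346 to 5852 in S226A lungs against 1112 to 2389, and macrophage markers 1164 to 1481 against 2118 to 2471. Of the latter, Csf1r and Adgre1 were lower (log2 fold changes -1.13 and -0.58), whereas Marco and Cd5l were higher by the second rule (1.01 and 1.97, edgeR adjusted p = 0.0165 and 0.0412). Their part in these values was not tested.

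In the brain, 0 of 9 members were called in S226A embryos (0.124% of all genes by the stringent rule and 0.243% by the second) or in Y130A embryos (0% and 0.00592%). DESeq2 called 0, and 0 had an unadjusted p below 0.05 in either (2.27% and 2.22% of all genes). Only Epx, Cpa3 and Gata2 had reads in all 16 brains, while Prg3 and Fcer1a had none. Prg3, although counted among the 9, could thus not have been called in brain. Epx had 8, 10, 3 and 8 reads in S226A brains against 16, 7, 15 and 6 (log2 fold change -0.56 ± 0.72, edgeR adjusted p = 1), and 24, 16, 16 and 18 in Y130A brains against 18, 24, 27 and 15 (-0.10 ± 0.67, edgeR adjusted p = 1). The eosinophil granule gene Prg2 had 0 to 2 reads in the same brains, so Epx was read in brains where the other eosinophil granule genes were at or near 0. Summed granulocyte precursor markers, Mpo among them, were 41.0 to 111 normalized counts in brain.

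Cpa3 had 15.9 ± 5.29 normalized counts in S226A brains against 17.7 ± 7.91, and 12.9 ± 4.06 in Y130A brains against 15.4 ± 10.6. Gata2 had 71.2 ± 18.9 against 79.4 ± 23.3, and 78.4 ± 6.09 against 83.0 ± 16.1. For both genes the mutant and wild-type brains overlapped in each set. The remaining members were near zero in brain, with at most 13 reads of Il5ra, 7 of Ms4a2, 2 of Prss34 and 1 of Mcpt8 in any library.

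Between wild-type tissues, several members differed beyond the spread of the libraries. Over 8 livers, 7 lungs and 8 brains of both litter sets, 5 members were called higher in liver than in lung (18.9% of all genes) and 2 higher in lung (23.7%). Some members passed the filter on low counts through their liver reads. Mcpt8 had at most 7 reads in any lung and 1 in any brain, and Prg3 at most 6 and 0. The counts of members higher in liver, here and against brain, are thus not independent of that filter. Prg2 had 189 ± 126 normalized counts in liver and 4.59 ± 10.3 in lung, a log2 fold change of 5.70 ± 0.61 (edgeR adjusted p = 7.55e-11). Of the lung reads of Prg2, 21 were in the wild-type lung of litter 2881, and without it the log2 fold change was 8.72. Epx, Mcpt8, Ms4a2 and Prss34 were also higher in liver, by 4.63 ± 0.72, 4.76 ± 0.78, 4.02 ± 0.75 and 3.30 ± 0.57 on the log2 scale (edgeR adjusted p from 3.1e-07 to 7.48e-06). The calls of Mcpt8 and Ms4a2 were lost without 1 lung (litter 2848 and litter 2875, respectively), and neither was called within either litter set. Cpa3 and Gata2 had the opposite order. Cpa3 had 99.4 ± 41.9 normalized counts in lung against 41.1 ± 12.2 in liver (-1.25 ± 0.28, edgeR adjusted p = 0.000103), and Gata2 had 784 ± 222 against 123 ± 26.9 (-2.58 ± 0.16, edgeR adjusted p = 2.58e-18). These sizes depend on TMM. By library size alone, means of the S226A and Y130A sets were 126 and 104 in lung against 35.5 and 26.8 in liver for Cpa3. For Gata2 they were 1094 and 680 against 94.3 and 91.7. The liver excess of Prg2 was smaller that way, at 93.1 and 188 against 8.19 and 1.68. Prg3 had 22.9 ± 21.6 in liver and 0 reads in all 7 lungs, at least 6.99-fold higher when each lung is set to 3 reads. Il5ra had 10.2 ± 8.07 against 4.42 ± 6.31 and was not called (edgeR adjusted p = 0.109).

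**Figure D4:**
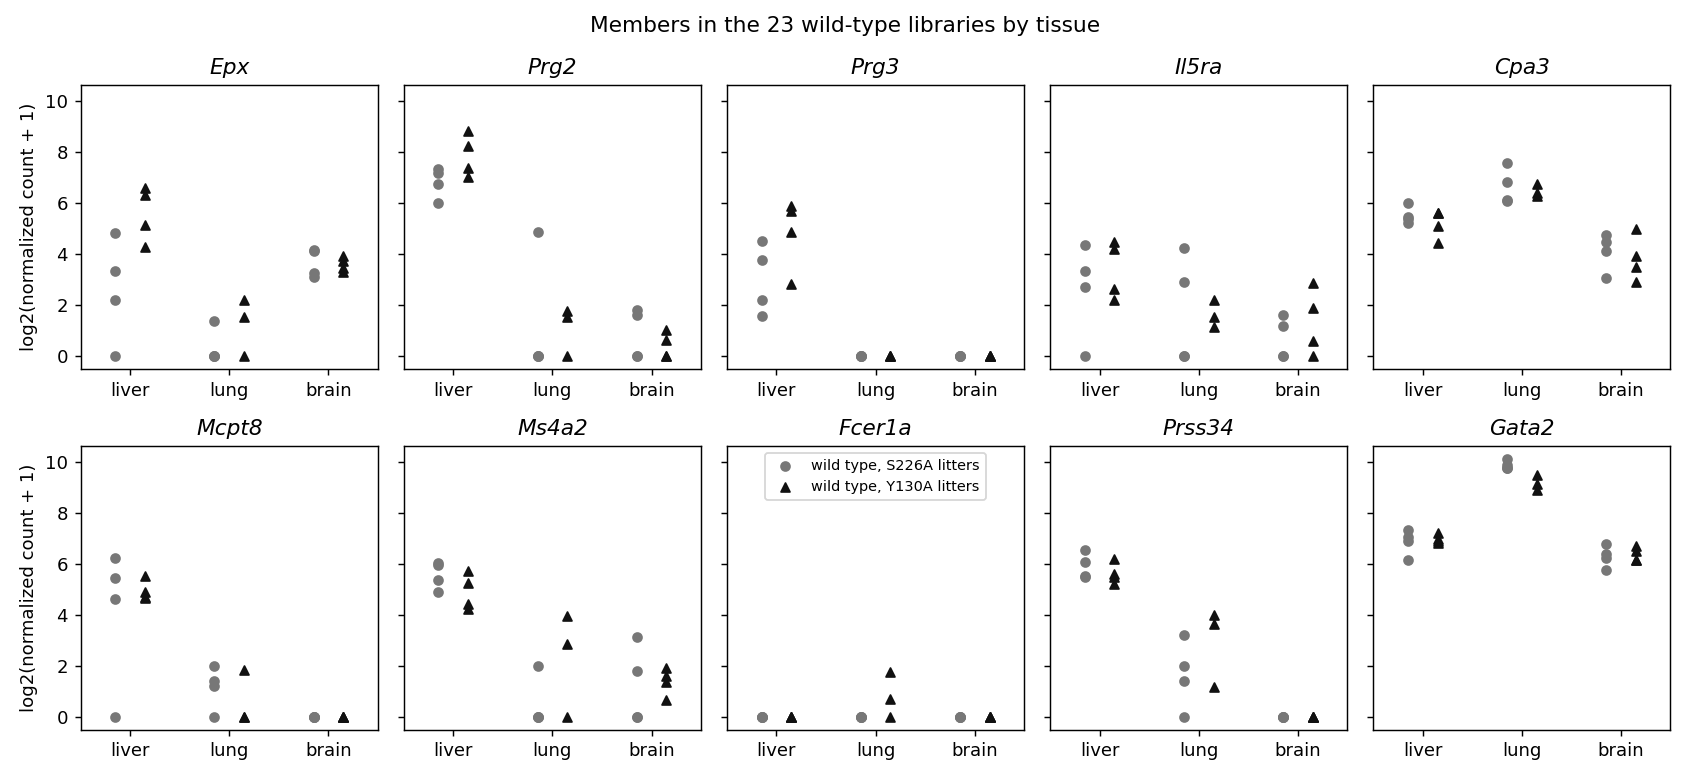
Levels of the 10 genes, as log2 of the normalized count plus 1, in the 23 wild-type libraries by tissue; circles are litters of the S226A set and triangles those of the Y130A set. Most members are highest in liver, Cpa3 and Gata2 are highest in lung, Epx is above 0 in all 8 brains, and the higher Epx, Prg2 and Prg3 values in liver are mostly triangles.

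Against brain, 6 members were called higher in liver (26.9% of all genes) and 0 higher in brain (29.2%). They were Prg2, Il5ra, Cpa3, Mcpt8, Ms4a2 and Prss34. Mcpt8 had 32.6 ± 21.1 normalized counts in liver and 0 reads in all 8 brains, at least 12.9-fold higher, and Prss34 had 55.5 ± 19.2 against 0, at least 21.9-fold higher. Mcpt8 was no longer called when any 1 brain was left out or with the litter as block, and neither gene was called within either litter set. Prg3, also without reads in brain, was at least 9.03-fold higher. Il5ra was higher by 2.73 ± 0.88 on the log2 scale (edgeR adjusted p = 0.00445), a call that was lost when any of several single libraries was left out. Ms4a2 was higher by 4.14 ± 0.67 on the log2 scale (edgeR adjusted p = 3.59e-07) and Cpa3 by 1.31 ± 0.29 (edgeR adjusted p = 5.99e-05). Epx was not called (33.1 ± 35.0 in liver, 11.8 ± 3.66 in brain, 1.01 ± 0.50, edgeR adjusted p = 0.0588). Within the Y130A litters alone it was called higher in liver (2.31 ± 0.68, edgeR adjusted p = 0.00214), while within the S226A litters its log2 fold change was -0.30, and without the 2 livers with squamous transcripts it was 0.42. Between lung and brain, 3 members were called higher in lung (25.7% of all genes) and 1 higher in brain (23.1%). Cpa3, Gata2 and Prss34 were the 3, at 2.57 ± 0.29, 3.18 ± 0.16 and a bound of at least 2.28-fold, with Prss34 called in neither litter set alone, and Epx was higher in brain, with a log2 fold change of -3.62 ± 0.71 for lung over brain (edgeR adjusted p = 1.64e-05). Libraries of different tissues mostly came from the same embryos (the wild-type lung of litter 2970 was from another embryo than its liver and brain), which this comparison did not take into account.

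Within either litter set fewer members were called between tissues. In liver against lung there were 4 of 9 in the S226A litters (38.6% of all genes) and 5 in the Y130A litters (39%). In liver against brain there were 3 (50.7%) and 4 (52.9%), and in lung against brain 2 (44.7%) and 3 (44.6%). Prg2, Cpa3, Prss34 and Gata2 were called between liver and lung in both sets, with the same direction. Mean levels in wild-type liver were also higher in the Y130A litters for the eosinophil granule genes, although the libraries of the 2 sets overlapped for each. Epx was at 56.2 ± 35.8 normalized counts in the Y130A litters and 9.97 ± 12.1 in the S226A litters, Prg2 at 260 ± 148 and 118 ± 42.9 and Prg3 at 35.8 ± 23.6 and 10.01 ± 9.14. The difference between sets was not tested. For Cpa3, Mcpt8, Ms4a2 and Prss34 the means of the sets were 37.0 and 45.2, 30.6 and 34.7, 31.6 and 48.2, and 49.3 and 61.6. Litter set and depth cannot be told apart in these wild-type livers.

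Per kilobase of exon and scaled to library size (RPKM), the order of the members in wild-type liver was Prg2 (7.65 ± 5.09, n = 8), Prss34 (1.54 ± 0.53), Mcpt8 (1.11 ± 0.72), Cpa3 (0.92 ± 0.27), Prg3 (0.82 ± 0.77), Gata2 (0.77 ± 0.17), Ms4a2 (0.48 ± 0.21), Epx (0.41 ± 0.43) and Il5ra (0.10 ± 0.08). Prg2 stood above the rest in mean, whereas the neighbours from Prss34 to Epx did not differ beyond their spread. The order depended on the litter set, since Prg3 was at 0.36 RPKM in the wild-type livers of the S226A litters and 1.28 in those of the Y130A litters, and Epx at 0.12 and 0.69. In lung the order began with Gata2 (4.91 ± 1.39, n = 7) and Cpa3 (2.22 ± 0.93 RPKM). In brain the same 2 genes led, at 0.51 and 0.37 RPKM, followed by Epx at 0.15. Of the mast cell proteases outside the list, the 2 with the most reads were also higher in lung than in liver by mean. Cma1 had 96.1 and 81.4 normalized counts in the wild-type lungs of the S226A and Y130A litters against 20.01 and 16.7 in their livers, and Tpsb2 56.6 and 71.1 against 23.5 and 25.3. Tpsab1, Mcpt1, Mcpt2 and Mcpt4 had means under 10 normalized counts in all of these groups, with Mcpt2 higher in liver (4.17 and 5.24) than in lung (2.14 and 0.63).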

How the data were processed

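RNA of 47 libraries (liver, lung and brain of E18.5 embryos, 12 groups) was sequenced by the authors, who trimmed the reads with Trim Galore 0.6.5, checked them with FastQC 0.11.5, aligned them to GRCm38 with STAR 2.6.0b and counted them per gene. The deposited values are these raw counts, without normalization. Strand setting and treatment of reads that fit several genes are not given in the sources used here. Symbols of 20424 of the 20456 genes matched GENCODE M21, which gave positions and exon lengths. Counts were fitted with edgeR 4.0.16 (R 4.3.3; TMM, filterByExpr with a minimum count of 10, quasi-likelihood test) in 1 model with a coefficient for each of the 12 groups, and p-values were adjusted by Benjamini-Hochberg over all 16892 genes tested. Mutants were compared with wild-type littermates, and wild-type tissues as the mean of both litter sets. Means of single members were also compared by exact two-sided permutation tests. The model was tested on simulated data first. Those data held large changes in genes with higher counts than most members, so they do not bear on detection in these members. All samples were grouped by their labels, and 1 wild-type lung that the authors removed was not analysed here. Each library is a separate embryo of its group. Among 69 pairs of replicates none agreed within sampling noise (lowest chi-square per degree of freedom 4.17).

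The litter number in the labels is shared by mutant and wild-type embryos, so numbers pair the samples. Residuals of litter mates had correlations of -0.0706 to 0.335, above 0.1 in 12 of 23 pairs. A fit with the litter as block was an alternative, as were RLE factors, no filter, DESeq2 1.42.0, only the libraries compared, both call rules and leaving out each library. Group means of the members were also taken by library size without TMM, but no fit was made that way. Leaving out the 2 livers with squamous transcripts and fits within litter sets were added after seeing the data. A floor of 3 reads stands for a count of 0. Intervals and floors cover counting error only. The members and gene lists were chosen with earlier results of these data known. Named were the 10 members, the called genes of the related lists, defining genes near zero, and for 4 members the 3 genes with the most similar liver levels.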

Additional observations from a re-analysis of the deposited data

Results flagged for a closer look

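Of 51 sets of 4 libraries examined for a single value far from the rest (Dixon's test at its 95% limit), 3 stood out, where chance gives about 1 in 20. Prss34 in the Y130A lung of litter 3069 had 20.4 normalized counts, against 5.92, 7.46 and 6.20 in the other lungs of the group. Gata2 in the S226A brain of litter 2881 had 99.2, against 63.0, 64.7 and 57.9. Gata2 in the Y130A lung of litter 2974 had 753, against 565, 558 and 579. None of these comparisons was called with these libraries, and none was called without them.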

How the results depend on the processing

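The number of members called in the mutant comparisons and in the differences between alleles was 0 under every alternative run, the litter as replicate block included. The block gave 7, 5 and 4 members called in liver against lung, liver against brain and lung against brain, where the unblocked fit gave 7, 6 and 4, and it changed no call between mutant and wild type. With the block Epx in S226A liver had a log2 fold change of 1.70 (edgeR unadjusted p = 0.0254, adjusted p = 0.121) and Cpa3 in Y130A liver 0.97 (edgeR adjusted p = 0.237). In S226A lung the block gave an edgeR unadjusted p of 0.0236 for Gata2 and 0.11 for Prg2. In Y130A lung it gave 0.0107 for Epx, which had 0 to 6 reads in the lungs. Leaving out 1 library gave 6 to 7, 4 to 7 and 3 to 4 members between tissues. Within the S226A litters alone these counts were 4, 3 and 2, with fewer libraries. Il5ra in liver against brain ran from 2.34 to 3.26 and lost its call without the wild-type liver of litter 2881 or 2851 or the wild-type brain of litter 2881, 2875 or 2970. Mcpt8 in liver against brain lost its call without any 1 brain, with the block, without a filter and with only the libraries compared, in each case through an SE above 1. In liver against lung Mcpt8 lost its call the same way without the lung of litter 2848, and Ms4a2 without that of litter 2875.

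Single libraries moved Epx in S226A liver from 1.31 to between 0.92 and 2.49, the highest without the wild-type liver of litter 2881 and the lowest without that of litter 2875. The log2 fold change of Gata2, S226A against wild-type liver, was -0.0162 with RLE factors, -0.0039 without a filter, -0.0159 with DESeq2 and -0.18 without the 2 livers with squamous transcripts. Without those livers Gata2 in Y130A liver was 0.027, and the differences between alleles in liver were -0.21 for Gata2 and 0.25 for Prg2. With the block Cpa3 in S226A lung was 0.0144 and Prss34 in Y130A lung -0.17. Epx in wild-type liver against brain was -0.30 within the S226A litters. The cause was not tested.

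In S226A liver, leaving out 1 library gave 0.15 to 0.57 for Prg2, 0.55 to 1.62 for Prg3, 0.35 to 1.52 for Il5ra, 0.37 to 0.82 for Cpa3, 0.34 to 1.40 for Mcpt8 and -1.29 to -0.44 for Ms4a2. In Y130A liver it gave -0.97 to -0.32 for Epx, 0.26 to 0.89 for Prg2, 0.72 to 1.06 for Cpa3, 0.21 to 0.75 for Ms4a2 and 0.0286 to 0.66 for Prss34, the lowest without the mutant liver of litter 3069. Leaving out 1 library also turned the sign of these log2 fold changes. In S226A liver Prss34 ran from -0.50 to 0.18 and Gata2 from -0.18 to 0.18. In Y130A liver Prg3 ran from -0.0766 to 0.60, Il5ra from -0.10 to 0.65, Mcpt8 from -0.0392 to 0.38 and Gata2 from -0.12 to 0.0484. In S226A lung Cpa3 ran from -0.27 to 0.31 (Gata2 kept its sign, from -0.51 to -0.17), and in Y130A lung Prss34 from -0.50 to 0.65 and Gata2 from -0.0261 to 0.26. In S226A brain Cpa3 ran from -0.40 to 0.11 and Gata2 from -0.37 to 0.0245. In Y130A brain Epx ran from -0.26 to 0.0375, Cpa3 from -0.50 to 0.32 and Gata2 from -0.16 to 0.0385. The differences between alleles in liver ran from -0.15 to 0.21 for Gata2 and from -0.53 to 0.10 for Prg2.

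Over all genes, the stringent rule called 13 in Y130A liver, against 57 with DESeq2, 34 with the block and 2 with only the libraries compared, and 51 in S226A lung, against 80 with DESeq2 and 8 with only the libraries compared.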
